A study of Bos taurus with 4 samples.

Results

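snoRNA fragments were the small RNAs of bovine oocytes whose sequence the annotation matched to a small nucleolar RNA (snoRNA) gene. They were taken as every listed sequence with a name beginning with the snoRNA prefix, after a bracketed note was stripped. A sequence with several names was shared equally among them, and the shares were summed by the RF family number that each name carries. This gave 2879 distinct sequences of 2468643 in all, under 383 of the 38611 names, in 185 families. The study sequenced small RNAs of Bos taurus oocytes at the germinal vesicle stage, the arrested stage of a full-grown oocyte before meiosis resumes. The TDRKH IP group had 2 libraries of RNA that came down with an anti-Tdrkh antibody, and the input group had 2 libraries made without an antibody. No genotype or treatment is given for either group, there was no precipitation with a control antibody among these libraries, and the labels do not say whether replicates came from separate oocyte pools, so each p-value rests on a spread between libraries that may be technical.

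snoRNAs are short RNAs of the nucleolus. Those with box C (consensus TGATGA in DNA letters, near the 5′ end) and box D (CTGA, near the 3′ end) guide methylation of the ribose in ribosomal and spliceosomal RNA, and those with boxes H and ACA guide the conversion of uridine to pseudouridine. Pieces of snoRNAs occur in small RNA libraries, and some have been found in Argonaute proteins. TDRKH is a Tudor and KH domain protein of the mitochondrial surface that binds PIWI proteins and takes part in trimming the 3′ ends of piRNAs, the small RNAs that PIWI proteins carry. PIWIL3, named in the title of the series, is a PIWI protein of mammalian oocytes that mice lack. The files pair the RF numbers with no RNA names, so families are called by their numbers and were not split into the box classes.

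The commonest fragments differed in kind between families, and the dominant sequence of each of the 10 largest families (by the mean of the group means, in RPM, reads per 1000000 listed reads) is printed here as the files give it. In the first set capitals mark each TGATG and each CTGA, the core letters of boxes C and D.
RF00289: gcgggTGATGcgaactggagtCTGAgt
RF00221: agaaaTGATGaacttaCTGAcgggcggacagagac
RF00572: accccgTGATGgaaCTGAggatCTGAgg
RF00342: atgttaTGATGATGggcaaaatt
RF00016: ctgctgTGATGATGgatt
RF00108: gatcgaTGATGactcccac
RF00012: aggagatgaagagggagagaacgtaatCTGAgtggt
RF00403: aaagtgggcatgtgtgtgacaaac
In the second set capitals mark bases that lie in a run of 18 bases also found in a sequence that the same files name for a piRNA cluster, a genomic interval from which piRNAs arise. These runs cover both sequences from end to end.
RF00152: TGTGGAAAATTCTGAAAGAGATGGGA
RF00153: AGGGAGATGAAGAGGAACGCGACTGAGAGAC
The 10 dominant sequences were between 18 and 36 nt long. TGATG lay within the first 15 bases of 6 of them and CTGA within the last 8 bases of 2. In RPM, 9 of the 10 were lower in both TDRKH IP libraries than in both inputs, and the RF00152 sequence was higher in both. The share of all sequences that lie so is not given here.

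Across the libraries, TDRKH IP 1 and 2 held 11138905 and 11060320 listed reads, and input 1 and 2 held 1079364 and 1354003. Sequences with a piRNA cluster name took 96.8% ± 0.0484 of the reads in TDRKH IP and 88.3% ± 0.668 in input (SD, n = 2 each), so a lower RPM of snoRNA fragments and a higher yield of piRNAs cannot be told apart. The microRNAs listed for the oocyte (miR-10a, miR-30d, miR-92a and let-7a) summed to 70.9 ± 16.6 RPM in TDRKH IP and 5519 ± 319 RPM in input. Their level in other cells was not tested, so the sum is no measure of oocyte RNA. The 17 marker microRNAs of other cell types (cumulus and granulosa, blood, liver, stroma, endothelium, epithelium) ranged in sum from 10.3 to 17.4 RPM in TDRKH IP and from 1013 to 1090 RPM in input. The 2 erythroid markers were at 0 in every library. The part of other cells in the snoRNA reads was not tested.

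snoRNA fragments as a class were scarcer in the precipitate. They made up 159 and 220 RPM of TDRKH IP 1 and 2, against 929 and 1045 RPM of input 1 and 2, and the groups did not overlap. The Wilson 95% intervals ran from 152 to 166 and from 212 to 229 RPM in the TDRKH IP libraries, and from 874 to 989 and from 992 to 1101 RPM in the inputs. These intervals cover counting error only, since reads include PCR copies. The mean was 190 ± 43.3 RPM in TDRKH IP and 987 ± 82.2 RPM in input (SD, n = 2 each), a log2 change of −2.38 ± 0.28 (SE; adjusted p = 2.33e-09 over 15 RNA classes, edgeR quasi-likelihood test). Of the 15 classes, 86.7% were lower and 6.67% were higher by the same test, so the fall was shared with most annotated RNA other than piRNA. The change was −0.76 with TMM factors, −0.53 with DESeq2 and −1.52 with each sequence counted once, and scaled to microRNA reads the direction turned, to 2.36. TDRKH IP 2 exceeded TDRKH IP 1 in RPM in 53 of the 65 families tested, and input 2 exceeded input 1 in 41 of 65.

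Most families were lower per listed read, at a median change close to that of all names in the fit used here but not with other filters. Of the 185 families, 65 passed the filter on low counts and 120 did not. The filter asks for a level in 2 libraries. Most of the 65 families reached it in both inputs but not in both TDRKH IP libraries. RF00266 was tested, with 0.18 and 0.09 RPM in TDRKH IP and 14.8 and 12.9 RPM in input. RF00494, with 9 and 4 reads in TDRKH IP and none in input, was not tested. The number of families called lower was thus favoured by the filter. Among the 65, 57 were lower and 1 was higher in TDRKH IP (edgeR, adjusted p under 0.05 over 5439 names), beside 58.5% lower and 16.3% higher of all names tested. In 56 of the 57 both TDRKH IP libraries lay below both inputs. The share of all names without overlap between the groups is not given here, so this count only describes the families. The median log2 change was −2.71 over the 65 families and −2.46 over all names. With no filter the medians were −2.62 and 0.35, and with 10 RPM in 2 libraries they were −2.94 and −0.14. The changes of the 57 ran from −1.58 to −6.50. The 120 families left out had between 0.5 and 30 reads each and together 12.3% of the snoRNA reads in TDRKH IP and 13.4% in input. With DESeq2's size factors, which moved the median of all names by 2.13 on the log2 scale, 9 families were lower and 3 were higher. In that fit the median was −0.59 over the families and −0.34 over all names. With a library left out, the medians of the families and of all names were −2.56 and −3.07 without TDRKH IP 1 (51 families tested). They were −3.32 and −3.18 without TDRKH IP 2 (51 tested). Without input 1 they were −2.75 and −1.08 (68 tested), and without input 2 −2.49 and −0.57 (63 tested).

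**Figure D1:**
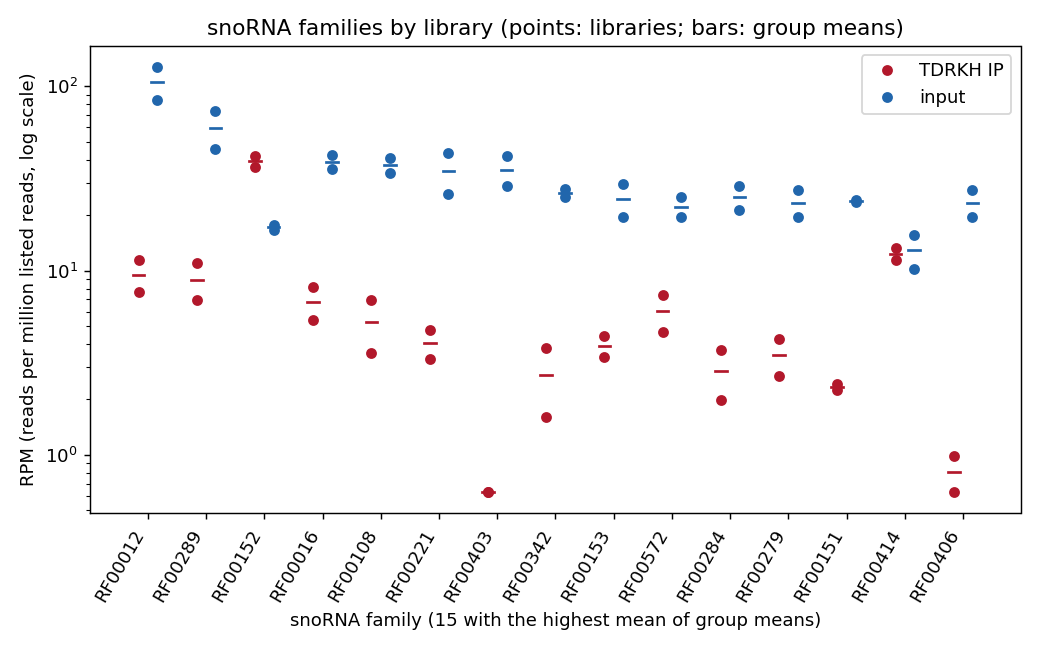
RPM (log axis) of the 15 snoRNA families with the highest mean of the group means; points are libraries, TDRKH IP in red on the left and input in blue on the right of each pair, and short bars are group means of 2 libraries. In 13 families the red points lie below the blue; in RF00152 they lie above (36.7 and 41.7 against 16.7 and 17.7 RPM), and in RF00414 they overlap.

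The family with the highest RPM, by the mean of the group means, was RF00012, with 21 genes and 236 distinct sequences. It had 211 reads over both TDRKH IP libraries and 263 over both inputs, which is 7.63 and 11.4 RPM in TDRKH IP 1 and 2 and 84.3 and 127 RPM in input 1 and 2, with no overlap. The log2 change was −3.49 ± 0.25 (adjusted p = 1.97e-05, edgeR). Its reads were divided among many fragments: its dominant sequence held 4.43% of the family's reads, and only 8.02% shared that sequence's first 12 bases.

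RF00289, with a single gene, was the opposite in shape. It had 77 and 121 reads in TDRKH IP 1 and 2 and 79 and 62 in the inputs, or 6.91 and 10.9 RPM against 73.2 and 45.8 RPM, and fell by 2.71 on the log2 scale (adjusted p = 0.000169, edgeR). Its dominant sequence, gcgggTGATGcgaactggagtCTGAgt, holds both boxes and took 47.5% of its reads, and 81.7% of the family's reads shared its last 12 bases. This 27 nt sequence had 45 and 80 reads in TDRKH IP and 16 and 20 reads in input. It was the only snoRNA sequence with at least 10 RPM in 2 libraries. It reached this level in the inputs alone, the group where it was higher, so this filter favoured a lower call. Its 4.04 and 7.23 RPM in TDRKH IP lay below the 14.8 RPM of each input, a log2 change of −1.39 ± 0.41 (adjusted p = 0.0055 over 11786 sequences, edgeR, of which 19.9% were lower and 41.9% were higher). Without TDRKH IP 1 it was no longer past the threshold, at −1.03.

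Several further families had fragments with fixed 5′ ends. In RF00221 89.3% of the reads shared the first 12 bases of the printed 35 nt sequence, in RF00151 72.7% shared those of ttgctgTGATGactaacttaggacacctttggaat, and in RF00572 68.8% shared those of the 28 nt sequence. RF00221 had 3.32 and 4.79 RPM in TDRKH IP and 25.9 and 43.6 RPM in input (log2 change −3.12 ± 0.33, adjusted p = 0.000124, edgeR). RF00151 had 2.24 and 2.44 RPM in TDRKH IP and 24.1 and 23.6 RPM in input, a log2 change of −3.34. RF00572 had 4.67 and 7.41 RPM in TDRKH IP and 19.5 and 25.1 RPM in input, and its change of −1.89 was the smallest among the families called lower of the 15 largest. No library of one group reached the range of the other in any of the 3.

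The largest falls were in families that nearly vanished from the precipitate. RF00403 had 7 and 7 reads in TDRKH IP 1 and 2 and 45 and 39 in the inputs, although the TDRKH IP libraries were the deeper ones. That is 0.628 and 0.633 RPM in TDRKH IP and 41.7 and 28.8 RPM in input (log2 change −5.74 ± 0.35, adjusted p = 9.67e-06, edgeR). Its dominant sequence had no read in TDRKH IP and 7 and 2 reads in input. RF00406 had 11 and 7 reads in TDRKH IP and 21 and 37 in input (−4.83), and its 36 nt fragment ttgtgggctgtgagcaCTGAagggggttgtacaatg had 2 and 4 against 9 and 5 reads. Among families outside the 15 largest, RF00266 (2 and 1 reads in TDRKH IP, 16 and 17.5 in input, log2 change −6.50) and RF00281 (2 and 0, against 7 and 11, −6.06) changed most. RF00404, RF00610 and RF00099 followed at −5.84, −5.34 and −5.01. Read counts of 3 or fewer per library stand behind several of these TDRKH IP values. The families of this paragraph passed the filter on low counts through their input reads, the group where they were higher.

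RF00152 was the exception. It had 409 and 461 reads in TDRKH IP 1 and 2 and 18 and 24 reads in input 1 and 2, or 36.7 and 41.7 RPM against 16.7 and 17.7 RPM, and the groups were well apart. The log2 change was 1.18 ± 0.19 (adjusted p = 0.00089, edgeR), and it was higher in both TDRKH IP libraries. The direction was the same in each fit that kept it. The family was not past the threshold with no filter (adjusted p = 0.0617, edgeR) or with either input library left out. The change was 1.14 without input 1 and 1.23 without input 2. RF00152 made up 23.1% and 18.9% of the snoRNA reads in TDRKH IP 1 and 2 and 1.80% and 1.70% in the inputs. Nearly all of its reads (906 of 912) carried the name of the gene ENSBTAG00000045219.

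Its reads came from short stretches. The fragments overlapped into 3 stretches that held 79.9%, 10.4% and 4.71% of its reads, given here in capitals because runs shared with piRNA cluster sequences cover them whole.
stretch 1: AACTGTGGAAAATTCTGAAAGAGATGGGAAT
stretch 2: TATATGCAGGTCAGGAAGCAACAGTTA
stretch 3: ACCACCTGACCTGCCTCTTGAGAA
Stretch 1 had 312 and 387 reads in TDRKH IP and 14 and 16 in input, from 59 sequences. Its reads began mainly at position 4 of the stretch, a T (48.9% in TDRKH IP, 43.3% in input), and at position 1, an A (38.2% and 40.0%). They ended most often at position 29 (27.3% in TDRKH IP, 26.7% in input), with further ends at positions 25 and 26. At other positions the shares were less alike, such as ends at position 24 (3.15% in TDRKH IP, 16.7% in input). The inputs have only 30 reads on this stretch, and a difference in ends was not tested. The commonest fragment, TGTGGAAAATTCTGAAAGAGATGGGA, runs from position 4 to 29 and had 78 and 93 reads in TDRKH IP and 1 and 4 in input. AACTGTGGAAAATTCTGAAAGAGATG had 50 and 70 reads in TDRKH IP and 0 and 2 in input, and AACTGTGGAAAATTCTGAAAGAGAT had 50 and 67 against 1 and 2. Stretch 2 had 49 and 38 reads in TDRKH IP and 2 and 6 in input, and stretch 3 had 23 and 18 against 0 and 2.

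**Figure D2:**
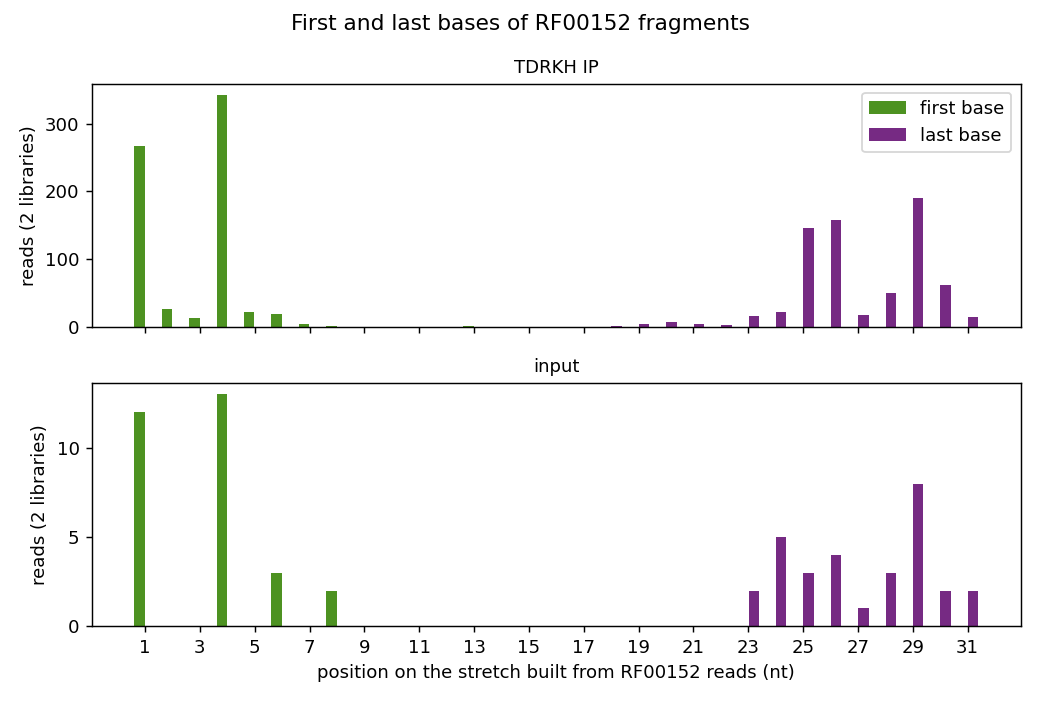
Reads of RF00152 fragments on stretch 1 by the position of their first base (green) and last base (purple), summed over 2 libraries, TDRKH IP above and input below; the vertical scales differ. First bases pile up at positions 1 and 4 in both groups, and in TDRKH IP last bases pile up at 25, 26 and 29.

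Sequences almost like those of RF00152 were abundant under piRNA cluster names. Of RF00152 reads, 97.8% lay on sequences that share a run of 18 bases with a sequence named for a piRNA cluster; 1237 such cluster sequences were found. They had 8025 and 9883 reads in TDRKH IP and 332 and 491 in input, or 720 and 894 RPM in TDRKH IP and 308 and 363 RPM in input, again with the groups apart. The commonest and another frequent one are printed with capitals on the bases that lie in a run shared with RF00152 reads.
cluster sequence 1: taaacTGGAAAATTCTGAAAGAGAT
cluster sequence 2: taAACTGTGGAAAATTCTGAAAGAGAa
The first had 1721 and 2214 reads in TDRKH IP and 47 and 93 in input, and its cluster names place it at chr11:1348823-1354939, chr23:13851174-14138004 and chr6:93789006-93860971 (the sources used here do not name the build). The second had 753 and 830 reads in TDRKH IP and 20 and 19 in input and carried 60 cluster names. RF00152 reads that share no such run numbered 11 and 8 in TDRKH IP and 0 and 1 in input, too few to test. The part of piRNA cluster sequences in the RF00152 value was not tested.

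Shared runs were found in other families as well. Of the 185 families, 22 had a read that shares such a run, and in 4 of the tested families these made up over 50% of the reads. RF00414 (98.7% of reads sharing a run) had 148 and 127 reads in TDRKH IP and 11 and 21.2 in input, equal to 13.3 and 11.5 RPM against 10.2 and 15.6 RPM; the groups overlapped and the log2 change was −0.08 ± 0.27 (adjusted p = 0.799, edgeR). Its cluster partners, 837 sequences, were likewise close in level, at 137 and 107 RPM in TDRKH IP and 128 and 125 RPM in input. Its fragments TTTTCCAGGCAAGAATACT (31 and 30 reads in TDRKH IP, 1 and 2 in input) and TTTCCAGGCAAGAGTACT (18 and 17, against 3 and 5) each have a second name. In whole reads, before sharing among names, 61 of its sequences were also named for the snRNA family RF00020, with 167 and 158 reads in TDRKH IP and 6 and 13 in input, while the 33 with a snoRNA name only had 65 and 49 against 8 and 15 reads. Counting rows with snoRNA names only, the log2 change was −0.87 (adjusted p = 0.0602, edgeR).

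RF00153 shared runs too (98.0% of reads) but fell. It had 38 and 49 reads in TDRKH IP and 21 and 40 in input, or 3.41 and 4.43 RPM against 19.5 and 29.5 RPM, a log2 change of −2.66 ± 0.31 (adjusted p = 0.000204, edgeR). Its 22 cluster partners were rare, with 3 and 6 reads in TDRKH IP and 5 and 11 in input, and among them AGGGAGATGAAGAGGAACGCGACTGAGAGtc, named for a cluster at chr11:101631224-101639688 and printed with capitals again on shared bases, had 0 and 0 reads in TDRKH IP and 1 and 0 in input. Scaled to depth, the cluster partners of RF00153 were also lower, at 0.269 and 0.542 RPM in TDRKH IP and 4.63 and 8.12 RPM in input. RF00072 (71.4% of reads) had 5 and 15 reads in TDRKH IP and 12 and 10 in input, a log2 change of −3.31. Among the 61 tested families with less sharing, 55 were lower, beside 58.5% of all names tested, and the median log2 change was −2.74.

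**Figure D3:**
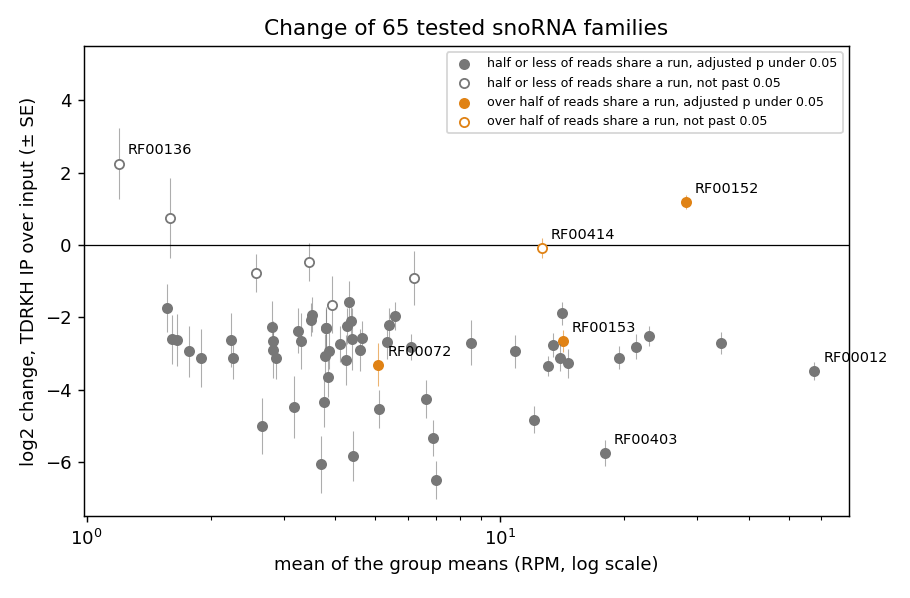
Log2 change of TDRKH IP over input (± SE, edgeR) against the mean of the group means in RPM (log axis) for the 65 tested snoRNA families; orange marks families in which over 50% of reads share an 18-base run with a piRNA cluster sequence, and open symbols have an adjusted p of 0.05 or more. RF00152 is the filled point above 0, RF00414 lies at −0.08, and the orange RF00153 and RF00072 lie among the grey families.

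The families that missed the threshold were RF00414 and 6 smaller ones, named here because of their values: RF00086, RF00309, RF00138, RF01156, RF00606 and RF00136. No read of these 6 shared a run with a piRNA cluster sequence. RF00136 had 23 and 22 reads in TDRKH IP and 0 and 1 in input, or 2.06 and 1.99 RPM against 0 and 0.739 RPM; the groups did not overlap (log2 change 2.25 ± 0.97, adjusted p = 0.0687, edgeR). Its commonest fragment, atatgTGATGatctcagcccaacttgaact, had 7 and 7 reads in TDRKH IP and none in the inputs, where a count of 0 allows 1.23 RPM over the group. RF00606 had 13 and 33 reads in TDRKH IP and 0 and 3 in input, and its fragment gccaaggatgagaaccctaatCTGAtt had 3 and 12 against 0 and 0 reads. RF00086 differed between the TDRKH IP libraries, at 1.80 and 6.87 RPM, against 6.49 and 9.60 RPM in the inputs, and its fragment aaaagTGATGtcatcttactaCTGAga had 7 and 22 reads in TDRKH IP and 0 and 7 in input. RF00138 had 2.33 and 3.53 RPM in TDRKH IP and 2.78 and 5.17 RPM in input.

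Taken as shares of the snoRNA reads, the 65 tested families were called in both directions, each in a smaller proportion than all names. With the snoRNA total as library size, a scaling chosen after the data were seen, 7 families were higher and 14 were lower (edgeR, adjusted p under 0.05), beside 41.3% higher and 35% lower of all names on that scale. The 7 were RF00152 and RF00414 together with RF00086, RF01156, RF00138, RF00606 and RF00136. RF00138 made up 1.47% and 1.60% of snoRNA reads in TDRKH IP and 0.299% and 0.495% in input (log2 change 1.89, adjusted p = 0.00178). RF00136 made up 1.30% and 0.904% in TDRKH IP and 0% and 0.0707% in input (log2 change 4.49, adjusted p = 5.2e-06). RF00012 made up 4.80% and 5.17% in TDRKH IP and 9.07% and 12.2% in input (log2 change −1.09, adjusted p = 0.00416), and RF00403 0.395% and 0.287% against 4.49% and 2.76%.

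The sharing of runs also set apart the sequences within the class. The 333 snoRNA sequences that share a run held 58.5 ± 4.06 RPM in TDRKH IP and 66.4 ± 14.6 RPM in input, and the other 2546 held 131 ± 39.2 RPM in TDRKH IP and 921 ± 67.6 RPM in input (SD, n = 2 each). Sharing sequences were thus 35.0% and 27.9% of snoRNA reads in TDRKH IP 1 and 2 and 6.03% and 7.34% in the inputs. With them left out the log2 change of the class was −2.81, and 55 of 61 families were lower and 0 were higher. In that fit the median was −2.74 over the families and −2.46 over all names, and the share of all names called is not given. RF00152, the family called higher with all reads, was not tested there, with 11 and 8 reads left in TDRKH IP and 0 and 1 in input. The 0 thus followed from its removal. Runs were also shared with microRNA sequences: 11 snoRNA sequences shared one with a bovine microRNA, at 0.236% ± 0.0144 of snoRNA reads in TDRKH IP and 0.355% ± 0.203 in input, and 101 shared one with a microRNA named from other species, at 3.85% ± 0.591 in TDRKH IP and 4.78% ± 0.835 in input. Among sequences tested with edgeR's own filter, 25 were snoRNA fragments, of which 16 were lower and 2 were higher (beside 16.2% lower and 17.8% higher of 63296 sequences), and both higher ones were RF00152 fragments printed above. Of the 17 that share no run, 15 were lower.

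The lengths of snoRNA fragments differed in the middle of the range. Reads of 23 to 27 nt made up 46.2% and 46.3% of snoRNA reads in TDRKH IP 1 and 2 and 33.7% and 30.2% in input 1 and 2. Reads of 33 to 36 nt made up 9.83% and 8.99% in TDRKH IP and 17.6% and 19.7% in input. The mean length was 25.98 ± 0.0359 nt in TDRKH IP and 26.76 ± 0.0228 nt in input (SD, n = 2 each). The groups did not overlap in any of these measures, and the two-sided exact permutation test gave p = 0.3333, the smallest that 2 against 2 libraries allow. In the whole libraries the mean length was 25.05 and 24.95 nt in TDRKH IP and 25.21 and 25.29 nt in input. Reads of 26 nt, the most frequent length of all listed reads (22.5% in TDRKH IP, 23.6% in input), were 14.9% and 12.9% of snoRNA reads in TDRKH IP and 4.39% and 4.24% in input.

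The families behind each length class differed. RF00152 supplied 258 and 310 of the snoRNA reads of 25 to 26 nt in TDRKH IP 1 and 2, or 55.0% of that class, and 4 and 12 in the inputs, or 7.06%. At 27 nt RF00289 supplied 31.0% of the snoRNA reads in TDRKH IP and 32.8% in input. At 33 to 36 nt RF00221 supplied 14.2% in TDRKH IP and 15.8% in input, and RF00406 supplied 3.56% against 10.8%. Among reads of 18 to 22 nt RF00414 supplied 17.3% in TDRKH IP and 1.46% in input. With the sequences sharing a run left out, the mean length was 26.8 ± 0.149 nt in TDRKH IP and 26.8 ± 0.0376 nt in input, while 33 to 36 nt still made up 13.7% ± 1.86 in TDRKH IP and 19.7% ± 1.84 in input.

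**Figure D4:**
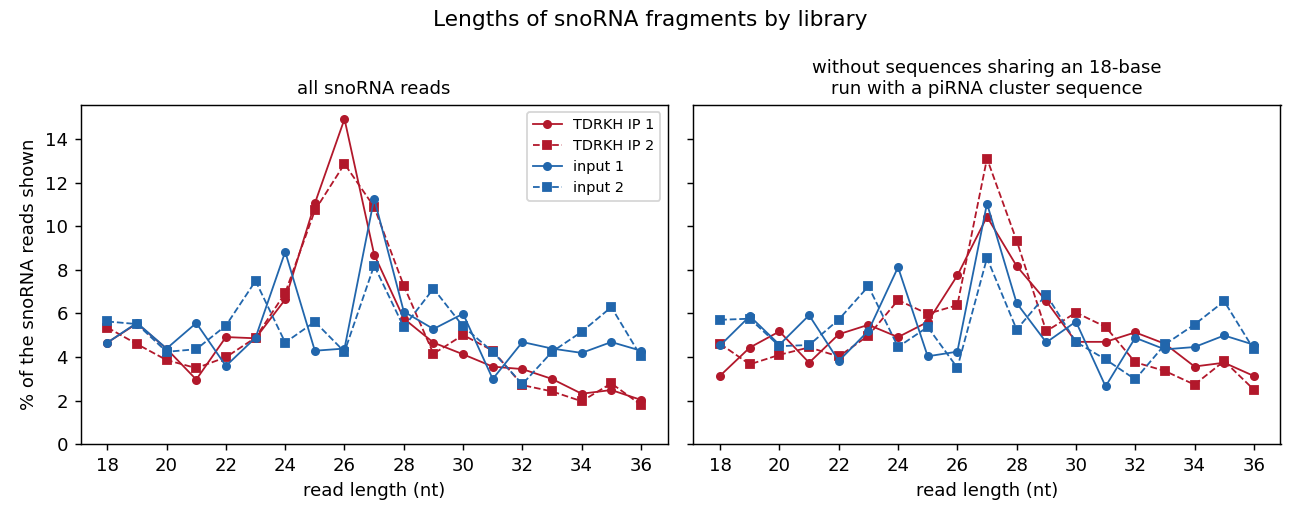
Share of snoRNA reads at each length (nt) in the 4 libraries, TDRKH IP in red and input in blue, for all snoRNA sequences (left) and without those that share an 18-base run with a piRNA cluster sequence (right). At 26 nt the TDRKH IP libraries stand at 14.9% and 12.9% on the left, against 4.39% and 4.24% in the inputs, and both groups peak at 27 nt on the right.

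First bases set snoRNA fragments apart from the library around them. T began 36.5% and 28.4% of snoRNA reads in TDRKH IP 1 and 2 and 29.2% and 25.1% in the inputs, with overlap between the groups (two-sided exact permutation p = 0.667), whereas T began 87.8% ± 0.583 of all listed reads in TDRKH IP and 82.5% ± 0.161 in input. A began 30.1% and 34.3% of snoRNA reads in TDRKH IP and 26.3% and 33.6% in input. G began 21.4% and 24.6% in TDRKH IP and 28.9% and 26.5% in input, and C began 12.3% ± 0.474 in TDRKH IP and 15.2% ± 0.484 in input. Among sequences that share a run, T began 61.9% and 53.6% of reads in TDRKH IP and 35.5% and 36.4% in input. Among the rest, T began 22.7% and 18.7% in TDRKH IP and 28.8% and 24.2% in input, the other way round.

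Box letters were common among snoRNA reads. TGATG within the first 15 bases, searched on the strand of the read, occurred in 32.8% and 40.7% of snoRNA reads in TDRKH IP and 41.5% and 39.0% in input, against 1.72% and 1.45% of all listed reads in TDRKH IP and input. CTGA within the last 8 bases occurred in 35.2% ± 3.48 of snoRNA reads in TDRKH IP and 35.2% ± 1.04 in input. Among snoRNA reads that share no run, TGATG near the start occurred in 50.1% and 56.4% in TDRKH IP and 43.8% and 42.0% in input, and CTGA near the end in 48.0% and 50.6% against 37.5% and 35.7%. Of the 49 tested families in which 50% or more of reads had either feature, 43 were lower and 0 were higher, with a median log2 change of −2.70. Of the other 16, 14 were lower and 1 was higher, with a median of −3.02. Among all names tested, 58.5% were lower and 16.3% higher. A match is a description of letters and not evidence of a working box.

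Most snoRNA sequences were rare. Of the 2879, 2009 were seen in 1 read of 1 library, and 50 occurred in all 4 libraries. TDRKH IP 1 and 2 held 930 and 1152 distinct snoRNA sequences and input 1 and 2 held 672 and 899. Reads of 29 families occurred in TDRKH IP alone and reads of 13 in input alone, with 3 reads corresponding to 0.135 RPM over the TDRKH IP group and 1.23 RPM over the input group, so absence from input was read at the shallower depth. There were 107 families with a single gene, and 2217 sequences carried the name of a single gene.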

How the data were processed

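Small RNAs of 18 to 36 nt were listed in the deposited files, 1 file per library, as sequences with whole-number read counts and the names given by unitas, per the file names. The deposited counts were not normalized; the aligner, its settings, versions and the genome build are named in none of the sources used here. RNA was extracted with TRIZOL and libraries were made with the NEXTflex kit, per the labels' protocols. Reads without a name were not analysed here.

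Shares of reads were summed by name, snoRNA names by RF family, and rounded to whole reads. Names kept by filterByExpr were tested with edgeR 4.0.16 (quasi-likelihood, R 4.3.3), with the sum of listed reads as library size and without normalization factors, adjusted by Benjamini-Hochberg over all names at 0.05. Sequences needed 10 RPM in 2 libraries. SE was the change divided by the root of F. DESeq2 1.42.0, other library sizes, filters and sharing rules were alternatives. The procedure was also run on simulated counts. Other steps used matplotlib 3.10.9, pandas 2.3.3, numpy 2.4.6, scipy 1.17.1 and Python 3.11.15.

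The members and lists were chosen with earlier results of these data known. Named families were the 15 with the highest mean of the group mean RPM and, in each direction, up to 5 others with the largest called change and no overlap between groups. Named sequences were the dominant ones of the 10 largest families, the top 5 of each group and up to 5 per direction with the largest change. Others are named after their values were seen. Replicates differed beyond counting noise over snoRNA families (chi-square per degree of freedom 1.79 in TDRKH IP and 2.11 in input), so each library counted once. The depth is 11138905 and 11060320 reads in TDRKH IP and 1079364 and 1354003 in input.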

Additional observations from a re-analysis of the deposited data

How the results depend on the processing

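The class total kept its direction and its call under all alternatives other than microRNA reads as library size, where it turned to 2.36 on the log2 scale; leaving out a library gave −2.64 to −2.17. Families lower numbered 57 of 65 tested in the report, 34 with TMM, 2 with microRNA reads as library size and 9 with DESeq2. They numbered 18 with no filter (185 tested), 17 with 10 RPM in 2 libraries (19 tested) and 14 with snoRNA reads as library size. Fewer were lower in each fit that left a library out. Those counts are not given, because a group then held a single library. The share of all names called is given only for the report's fit and for snoRNA reads as library size. Families higher numbered 1, and 3 with TMM, 51 with microRNA reads, 3 with DESeq2 and 0 with no filter. They numbered 7 with snoRNA reads as library size and 0 without piRNA cluster runs, where RF00152 was not tested. Relative to the report's fit, the median of all names moved by 1.36 with TMM, 4.69 with microRNA reads and 2.13 with DESeq2. The calls were made against no change and not against this median.

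For snoRNA sequences 0 were higher and 1 was lower, the RF00289 sequence, which passed the filter through the inputs alone. Scaling to microRNA reads gave 1 and 0 (3.32 for that sequence). With edgeR's own filter 2 were higher and 16 lower, and with 5 RPM in 2 libraries 1 and 3. Leaving out a TDRKH IP library gave 0 to 1 lower, and without an input library no snoRNA sequence passed the filter. Replicate numbers are shared by the groups, and the labels do not say whether same-numbered libraries came from the same pool. Deviations of same-numbered libraries correlated at 0.0212, which cannot decide this at such unlike depths. The main fit leaves out any pairing. With the replicate block 1 family was higher and 56 were lower, and the class changed by −2.40.

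With microRNA reads as library size the changes of these named families turned: RF00012 1.26, RF00289 2.004, RF00016 2.21, RF00108 1.90, RF00221 1.62, RF00342 1.44, RF00153 2.08, RF00572 2.83, RF00284 1.60, RF00279 1.96, RF00151 1.40 and RF00414 4.67. RF00572 was 0.26 with DESeq2 and 0.48 with snoRNA reads as library size. RF00414 was 1.28 with TMM, 2.09 with DESeq2, −0.87 with snoRNA names only, 0.20 with the whole count to each family and 2.36 with snoRNA reads, and lay between −0.32 and 0.28 when a library was left out. Of the 20 named families, 11 lost their call with DESeq2 and 10 with no filter. RF00152 kept its direction in each fit that tested it, from 1.09 to 5.92, and its adjusted p reached 0.0719. The causes were not tested.

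For lengths, in percentage points of TDRKH IP minus input, 18 to 22 nt turned to 3.35 with each sequence counted once and 28 to 32 nt to 5.49 without piRNA cluster runs. For first bases, without those runs T turned to −5.77, C to 0.51 and G to 1.79; A turned to −0.21 with each sequence counted once and ranged from −1.36 to 5.89 when a library was left out. Counts of 3 or fewer reads in TDRKH IP and the shallower inputs limit single sequences. The alternatives without piRNA cluster runs and with snoRNA reads as library size were chosen after seeing the data.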

Other observations

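Some snoRNA fragments overlapped microRNAs, 11 sequences with bovine ones and 101 with others. Among the bovine ones, sequences of RF00273 shared runs of 18 bases with sequences named miR-677-3p, and sequences of RF00340, RF00564 and RF00593 shared runs with miR-664b-3p, miR-92a-2-3p and miR-2440-3p. Of the snoRNA sequences, 109 also carried a name of another class, with 188 and 174 reads in TDRKH IP 1 and 2 and 26 and 40 in input 1 and 2, and 61 of them carried an snRNA name.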
